A study of Mus musculus with 158 samples.

Results

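The 10 apolipoprotein genes examined here were Apoa1, Apoa2, Apoa4, Apoa5, Apob, Apoc1, Apoc3, Apoe, Apoh and Apom, out of 21755 protein-coding genes in the annotation. They were chosen by name, and each was examined as its GENCODE gene body plus 10 kb on both sides in mm10. The data were DNase-seq hotspots, regions where DNase I cut nuclear chromatin more often than the local background at a false discovery rate of 5%. Nuclei came from whole liver, whole kidney, whole lung and B cells of F1 hybrid mice, sacrificed at 8 weeks of age. Every hybrid carried a C57BL/6J genome from the dam, and the sire was of an inbred strain that names the hybrid. B6x129 and B6xC3H had sires of classical laboratory strains, B6xCAST and B6xPWK had sires of the wild-derived strains CAST/EiJ and PWK/PhJ, and B6xSPRET had a sire of another mouse species, SPRET/EiJ. No mouse was treated. B cells were taken from femoral marrow of females by removing cells that carry CD43 or Mac-1/CD11b. The 138 adult libraries had been pooled by hybrid and tissue into 20 hotspot sets, 5 for each tissue, so the 5 hybrids served as the repeats of a tissue. Mouse embryonic stem cells (mESCs), labelled B6xCAST, gave 1 further DNase-seq set and 1 set of CTCF ChIP-seq hotspots, and 17 samples gave RNA-seq tables. The RNA-seq samples of liver, kidney and lung came from B6xC3H, B6xPWK and B6xSPRET. Those of B cells came from the same hybrids, except 1 labelled B6xCAST. No RNA-seq sample came from B6x129. Solid tissues hold many cell types, so a site open in fewer cells and a site less open in each cell cannot be told apart.

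Apolipoproteins are the protein part of the particles that carry lipids in blood. Apob is the scaffold of very low density and low density lipoproteins, and Apoa1 and Apoa2 are the main proteins of high density lipoprotein. Apoc1, Apoc3, Apoa4, Apoa5 and Apoe move between particles and govern lipases and receptor uptake. Apoh binds phospholipids in plasma, and Apom carries sphingosine-1-phosphate. Hepatocytes make most of these proteins, the intestine makes Apob, Apoa1 and Apoa4 as well, and Apoe is also made by macrophages and many other cells.

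Several of the genes are neighbours. Apoa1 (chr9:46228580-46230466, forward strand), Apoc3 (chr9:46232933-46235636, reverse) and Apoa4 (chr9:46240696-46243459, forward) lie in a cluster, with Apoa5 (chr9:46268633-46271919, forward) further along chromosome 9. Apoc1 (chr7:19689481-19692660) and Apoe (chr7:19696109-19699188) are both on the reverse strand of chromosome 7. Apoa2 (chr1:171225054-171226379), Apob (chr12:7977648-8016835), Apoh (chr11:108343354-108414396), all on the forward strand, and Apom (chr17:35128997-35132050, reverse) stand apart. Windows of neighbours shared bases, so the 10 windows made 7 separate regions of 282.5 kb together. The windows of Apoa1, Apoc3 and Apoa4 overlapped, as did those of Apoc1 and Apoe, and their values are not independent. Most windows also held starts of other genes, among them Tomm40l near Apoa2, Zpr1 near Apoa5, Tomm40 near Apoe, Prkca near Apoh, and Bag6, Csnk2b, Gpank1 and D17H6S53E near Apom. No other annotated gene lay in the Apob window.

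Liver sets held 211762 to 295565 hotspots that covered 78.4 to 128.8 Mb, kidney sets covered 63.6 to 85.2 Mb, lung sets 43.8 to 97.0 Mb and B cell sets 29.0 to 68.7 Mb. Base pairs covered were therefore also given after scaling each set to the mean total of the 20 sets. All 6 hepatocyte marker genes (Alb, Ttr, Serpina1a, Cyp2e1, Tat and G6pc) had a hotspot within 250 bp of the start in all 5 liver sets, 3 of them also in all 5 kidney sets, 1 in all 5 lung sets and none in B cells. Of the 6 kidney markers 5 had one in all 5 kidney sets, all 6 lung markers in all 5 lung sets and all 6 B cell markers in all 5 B cell sets. B cell markers were not confined to that tissue, with 2 of the 6 in all 5 liver sets, 2 in all 5 kidney sets and 3 in all 5 lung sets. Markers of other cells were present as well. Of the 3 endothelial markers, Tie1 was marked in all 5 liver, kidney and lung sets and in no B cell set, and the others were marked in 4 liver sets, 0 or 5 kidney, 5 lung and 0 or 5 B cell sets. Of the 3 macrophage markers, 1 was marked in no set, and Adgre1 and another were marked in all 5 liver and lung sets, 2 or 3 kidney and 3 or 5 B cell sets. The 3 T cell markers were marked in 3 or 4 lung sets and at most 2 sets of any other tissue, and the 2 fibroblast markers in all 5 kidney and lung sets, 1 or 5 liver sets and at most 1 B cell set. Of the 3 erythroid markers, Gata1 and Klf1 were marked in no set and the third in 1 B cell set. The 3 stem cell markers were marked in mESCs, in no liver or B cell set, in 1 to 3 lung sets and in at most 1 kidney set. Their part in the results was not tested.

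The sequences just before the starts show what lies at sites whose opening differed by tissue. The Apoe start is an exception, with a hotspot in all 20 adult sets. Promoter entries of RefSeq, in the GRCm38.p6 build of the mm10 genome, matched 8 of the 10 genes, and Apoc1 and Apoc3 had no entry. Each was searched on both strands, from 250 bases before to 50 bases after the start, for letters of 5 known motifs. For HNF4, a nuclear receptor of hepatocytes, the letters CAAAGTNCA were used. For HNF1, a homeodomain factor of liver and kidney, the part of its site searched was GTTAAT. For FOXA, a family of forkhead factors that open liver chromatin, the search used TGTTTNC. The letters for C/EBP, basic zipper factors abundant in liver and fat, were TTGCGCAA. The last was the TATA box, the site where the basal machinery binds, as TATAAA. Bases up to the annotated gene are printed 5′ to 3′ on the gene's strand, with matches in capitals.
Apoa1, chr9:46228380-46228579, forward: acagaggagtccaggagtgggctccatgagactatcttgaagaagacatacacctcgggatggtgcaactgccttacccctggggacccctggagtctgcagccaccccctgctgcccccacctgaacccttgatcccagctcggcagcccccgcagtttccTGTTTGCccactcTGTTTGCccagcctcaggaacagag
Apoa2, chr1:171224804-171225053, forward: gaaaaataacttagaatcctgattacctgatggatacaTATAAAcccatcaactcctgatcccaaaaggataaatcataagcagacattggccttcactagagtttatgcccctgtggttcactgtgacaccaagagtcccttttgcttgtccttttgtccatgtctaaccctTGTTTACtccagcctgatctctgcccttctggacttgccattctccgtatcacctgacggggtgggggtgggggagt
Apoa5, chr9:46268383-46268632, forward: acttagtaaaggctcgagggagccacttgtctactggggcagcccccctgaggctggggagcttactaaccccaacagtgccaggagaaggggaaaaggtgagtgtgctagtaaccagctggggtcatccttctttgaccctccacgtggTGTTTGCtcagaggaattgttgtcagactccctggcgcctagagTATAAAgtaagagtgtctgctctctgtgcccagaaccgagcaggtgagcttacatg
Apoa4, chr9:46240594-46240695, forward: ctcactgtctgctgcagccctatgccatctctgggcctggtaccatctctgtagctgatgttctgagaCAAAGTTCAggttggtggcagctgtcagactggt
Apob, chr12:7977427-7977647, forward: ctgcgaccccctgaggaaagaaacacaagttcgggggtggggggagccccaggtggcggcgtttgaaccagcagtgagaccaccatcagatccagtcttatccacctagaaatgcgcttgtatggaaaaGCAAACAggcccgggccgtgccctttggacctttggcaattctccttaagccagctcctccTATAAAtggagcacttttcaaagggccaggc
Apoh, chr11:108395047-108395296, forward: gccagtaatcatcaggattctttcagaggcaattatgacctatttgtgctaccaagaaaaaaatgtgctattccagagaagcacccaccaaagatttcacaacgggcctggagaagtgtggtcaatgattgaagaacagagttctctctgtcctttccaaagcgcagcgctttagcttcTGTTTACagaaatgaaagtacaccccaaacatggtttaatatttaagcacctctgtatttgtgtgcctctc
Apoe, chr7:19699189-19699438, reverse: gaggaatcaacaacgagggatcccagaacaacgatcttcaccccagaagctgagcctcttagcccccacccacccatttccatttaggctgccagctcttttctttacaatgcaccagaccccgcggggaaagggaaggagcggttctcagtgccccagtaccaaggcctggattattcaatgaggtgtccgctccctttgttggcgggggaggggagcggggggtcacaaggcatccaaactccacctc

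The FOXA letters occurred at -88 and -75 from the RefSeq start of Apoa1, at -77 in Apoa2, at -100 in Apoa5, at -121 in Apob, at -71 in Apoh and at -68 in Apom, whose match lies inside the annotated gene. They occurred in 20.5% of the 32851 promoters of the table. The HNF4 letters were found only in Apoa4, at -182, and in 1.41% of all promoters. TATAAA stood at -212 in Apoa2, at -60 in Apob and at -56 from the Apoa5 start shown, and 13.6% of promoters held it. The Apoe stretch held none of the 5, while other RefSeq starts of Apoe, at 19698398 and 19698621, had FOXA letters at -5, HNF1 letters at -172 and TATAAA at -100 and -96. The HNF1 and C/EBP letters, in 7.1% and 0.183% of promoters, were in none of the sequences printed. No printed match overlapped another, and a match is a description of the sequence, not of a bound factor.

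More base pairs were covered by hotspots in each of the 5 liver sets than in any of the 15 other sets at 9 of the 10 loci, with and without scaling, against 7.59% of all genes tested after scaling, and at Apom the ranges overlapped. The fitted difference between liver and the mean of the other tissues ran from 1.38 to 3.91 at the 9 on the log2 scale, with a median of 2.19 over the 10 loci and -0.12 over all 20430 genes tested. All 9 were called higher by limma at an adjusted p under 0.05, as were 25.6% of genes, while 36.0% of genes and no apolipoprotein locus were called lower. Without scaling, 9793 genes were called higher and 1418 lower in place of 5236 and 7351, the median of all genes moved to 0.42, and all 10 loci were called higher, Apom included (0.45, adjusted p = 0.00675). The 9 loci made up 6 of the 7 separate regions.

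**Figure D1:**
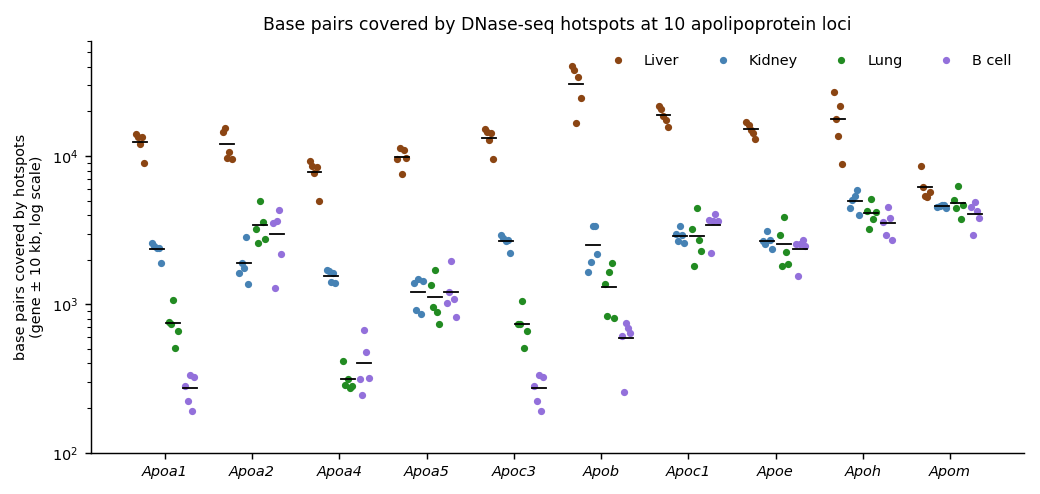
Base pairs covered by DNase-seq hotspots in the gene body plus 10 kb on both sides (log axis), for each of the 10 loci. Each point is 1 hotspot set, coloured by tissue with 5 hybrids per tissue, and the black bar is the mean of the 5. Liver points lie above all other points at every locus except Apom, where they overlap lung.

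Apob had the largest difference. In liver its window was covered over 40363 bp in B6x129, 38106 bp in B6xC3H, 16737 bp in B6xCAST, 34329 bp in B6xPWK and 24641 bp in B6xSPRET. In the same order of hybrids, used from here on, kidney had 1665, 1939, 3365, 3363 and 2203 bp, lung 1372, 836, 1657, 1898 and 808 bp, and B cells 614, 257, 750, 698 and 637 bp. The tissues thus followed the order liver, kidney, lung, B cell, and every tissue's range was clear of the next except for an overlap between kidney and lung. After scaling, liver held 23113.0 ± 5419.5 bp (SD, n = 5) and kidney 2328.6 ± 642.8 bp. Liver exceeded the mean of the others by 3.91 ± 0.17 (SE) on the log2 scale, a 15-fold difference (limma, adjusted p = 1.01e-11), which ranked 78 among 20430 genes. Within the gene itself, 14026 to 33611 of its 39188 bp were covered in liver and 257 to 1995 bp in the other sets.

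The opening of Apob in liver had a shape of its own. Rather than separate peaks, long runs covered the first part of the gene and, after a gap, its 3′ part. The block at the 3′ end, merged over sets, was 18800 bp wide, was present in all 5 liver sets and met no hotspot of any other adult set. The widest hotspot was 13762 bp in B6x129, 8779 bp in B6xC3H, 7076 bp in B6xPWK and 8949 bp in B6xSPRET, which placed it 23rd, 59th, 21st and 5th by width in those sets. In B6xCAST liver the whole window held 28 hotspots, none wider than 1460 bp. The other liver sets held 10, 13, 19 and 16 hotspots there, in the order B6x129, B6xC3H, B6xPWK and B6xSPRET. Outside liver, the widest hotspot in the window was 1146 bp.

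In the Apoa1-Apoc3-Apoa4 cluster, liver hotspots covered much of the stretch from the Apoa1 promoter to the Apoc3 promoter. They did so without a break in B6x129 and in separate pieces in the other hybrids. Kidney had narrower sites, at the starts of Apoc3 and Apoa4 but not of Apoa1. The Apoa1 window was covered over 14030, 13438, 12093, 13361 and 8995 bp in liver, against 2579, 2477, 2397, 2396 and 1900 bp in kidney. Lung had 767, 738, 1078, 507 and 664 bp and B cells 284, 225, 334, 190 and 325 bp, so no range of a tissue touched the next. In B6x129 liver a hotspot of 7970 bp ran over the whole of Apoa1 and Apoc3, and in B6xC3H, B6xCAST and B6xPWK one of 5240, 5102 and 5163 bp began at the Apoa1 start. The B6xSPRET liver set had a hotspot of 778 bp at that start and a separate one of 3329 bp after it.

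Liver exceeded the other tissues by 3.20 ± 0.15 at Apoa1 and by 3.25 ± 0.15 at Apoc3 on the log2 scale (limma, adjusted p = 1.47e-11 and 1.23e-11), which are 9.21-fold and 9.53-fold differences in covered base pairs. Both windows hold much of the same sequence. Apoa4, at the far end of the cluster, differed by 2.92 ± 0.15 (adjusted p = 3.93e-11). Its window was covered over 4974 to 9279 bp in liver and 1390 to 1714 bp in kidney. The B cell sets covered 247 to 668 bp of it and the lung sets 272 to 415 bp. Inside the Apoa4 gene, kidney hotspots covered 191 to 292 bp of 2764 bp, and no lung or B cell hotspot touched it. The same held for Apoc3, where kidney covered 367 to 460 bp of the gene and lung and B cells none.

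**Figure D2:**
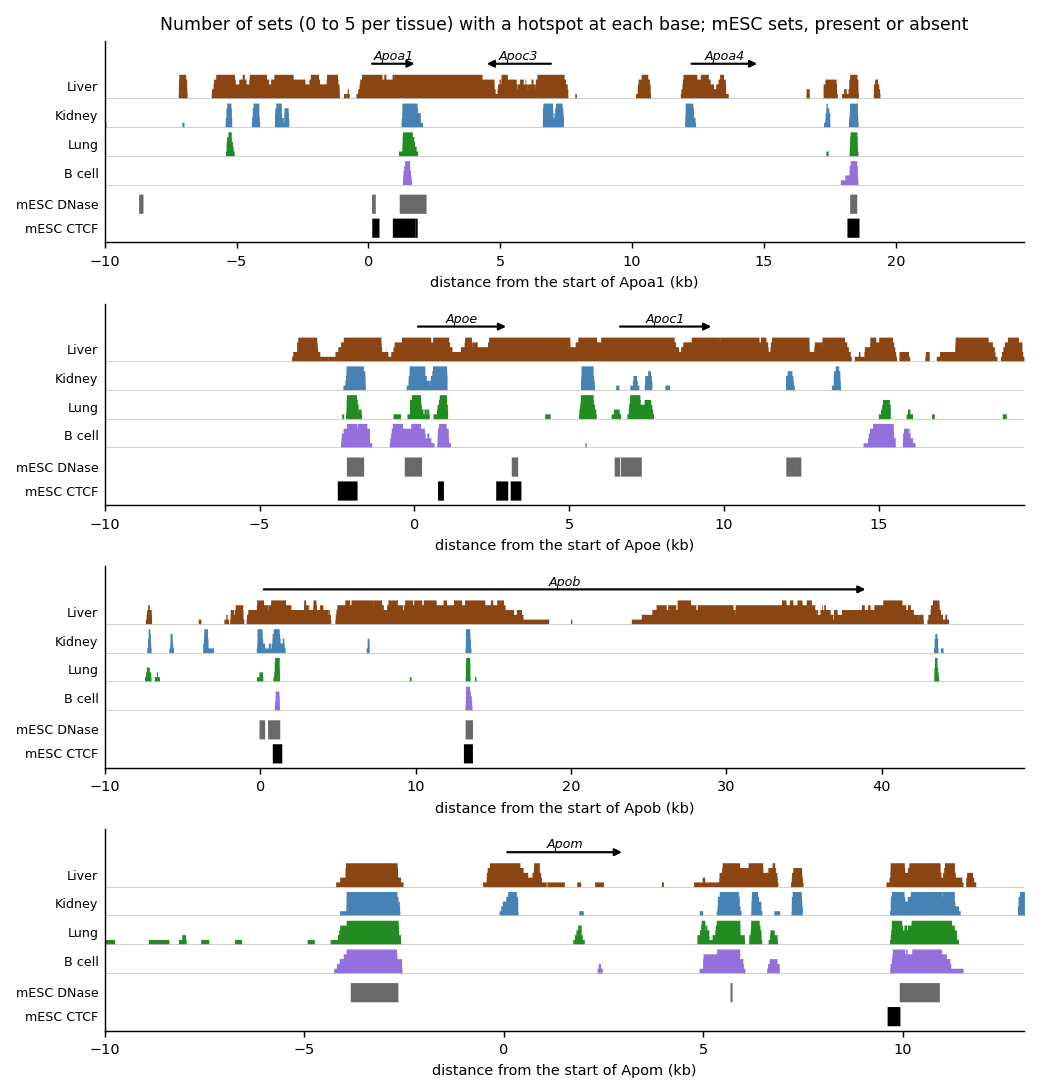
Number of hotspot sets, from 0 to 5 per tissue, that covered each base of 4 regions, against the distance in kb from the start of a named gene, with the mESC DNase-seq and CTCF sets below as present or absent. Arrows mark the genes in their direction of transcription. Liver blocks are broad over the Apoa1, Apoe and Apob regions, other tissues show narrow sites within them, and the Apom region looks alike in all tissues except at the Apom start.

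Apoa5, which promotes the clearing of triglyceride by lipoprotein lipase, was open along most or all of its length in liver and in no other adult set. Hotspots covered 2646 to 3287 bp of the 3287 bp gene in the liver sets and 0 bp in all 15 other adult sets. The mESC DNase-seq set had a hotspot inside the gene. In the wider window liver had 9556, 11274, 7636, 11010 and 9755 bp. The other sets had 735 to 1951 bp, and the site they shared was at the start of Zpr1, 4.43 kb from the Apoa5 start. The difference of the windows was 2.38 ± 0.18 on the log2 scale (limma, adjusted p = 3.76e-09).

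Apoa2 showed the same contrast at the gene, where liver hotspots covered 957 to 1326 of 1326 bp. No kidney or B cell set covered any of it, and of the lung sets 1 covered 75 bp. Over the window liver had 14539, 15567, 9703, 10745 and 9545 bp and kidney had 1636, 1913, 1774, 2839 and 1368 bp. Lung, with 2599 to 4986 bp, and B cells, with 1292 to 4314 bp, were less far below, and Tomm40l, which codes for a mitochondrial import protein, and Fcer1g, a receptor subunit of myeloid and mast cells, start in the same window. Liver exceeded the mean of the others by 1.54 ± 0.12 (limma, adjusted p = 5.05e-09) and kidney alone by 2.32 ± 0.15 (adjusted p = 1.44e-09).

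Apoc1 and Apoe lie within a liver block that in B6x129 was a single hotspot of 16807 bp, 13th by width in its set, and in B6xC3H one of 14805 bp, 12th by width. In B6xCAST, B6xPWK and B6xSPRET the widest piece was 3158, 3343 and 2622 bp. The Apoe window was covered over 17041, 16219, 14913, 14420 and 13149 bp in liver. Kidney had 2694, 2560, 3134, 2737 and 2369 bp, lung 2951, 1804, 3893, 2272 and 1884 bp, and B cells 2554, 1545, 2566, 2726 and 2460 bp. The 3 other tissues overlapped one another and stayed clear of liver. Unlike Apoc3 and Apoa4, Apoe kept open sites within the gene in every tissue, as did Apoa1. At least 825 bp of the 3080 bp Apoe gene were covered in kidney sets, 450 bp in B cell sets and 434 bp in lung sets. Liver differed by 1.95 ± 0.10 at Apoe and by 1.99 ± 0.10 at Apoc1 (limma, adjusted p = 7.71e-11 and 6e-11). The Apoc1 gene itself was covered over 2627 to 3180 bp of 3180 bp in liver, 344 to 991 bp in lung, 153 to 510 bp in kidney and 0 bp in all 5 B cell sets.

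Apoh had the most separate hotspots and the smallest of the 9 differences. In liver its window held 39, 27, 33, 45 and 16 hotspots that covered 27118, 17907, 13669, 21883 and 8863 bp. Kidney sets held 7 to 15 hotspots over 4005 to 5880 bp, lung 7 to 11 over 3221 to 5172 bp and B cells 3 to 10 over 2732 to 4565 bp. The liver range was clear of the others although it was wide, with B6xSPRET lowest and B6x129 highest. The difference was 1.38 ± 0.13 on the log2 scale (limma, adjusted p = 4.66e-08). The annotated 5′ end of Apoh lies 574 bp from that of Prkca, which runs the other way. The widest hotspot of the 10 loci in adult sets other than liver, 2061 bp, was in this window.

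At Apom, liver was not set apart from the other tissues over the window once sets were scaled. Liver had 8588, 6227, 5347, 5267 and 5768 bp, kidney 4550, 4602, 4672, 4709 and 4452 bp, lung 5083, 4472, 6289, 3757 and 4680 bp and B cells 4514, 2960, 4939, 4241 and 3822 bp. The mean of the liver sets, 6239.4 bp, was the highest of the 4 tissues, and the ranges of liver and lung overlapped. After scaling, liver differed from the mean of the others by -0.16 ± 0.09 on the log2 scale (limma, adjusted p = 0.125), and without scaling it was called higher, by 0.45 (adjusted p = 0.00675). The gene by itself gave another picture. Within its 3054 bp, liver hotspots covered 1829, 893, 583, 688 and 787 bp, kidney 349, 354, 303, 473 and 216 bp, lung 288, 0, 195, 131 and 89 bp and B cells 127, 0, 57, 0 and 0 bp. Liver was clear of kidney, kidney and lung overlapped, and the fit over gene bodies alone called Apom higher in liver, by 1.76 (limma, adjusted p = 3.24e-06). The sites that filled the rest of the window in every tissue lay at the starts of Bag6, D17H6S53E, Gpank1 and Csnk2b.

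Kidney was set beside liver because several of these genes are known to be active there. Liver exceeded kidney at the same 9 loci, by 1.45 ± 0.16 at Apoh up to 3.26 ± 0.21 at Apob, with adjusted p between 4.32e-10 and 6.77e-07 (limma), where 22.0% of genes were called higher and 25.2% lower. Apom differed by 0.13 ± 0.11 (adjusted p = 0.351). Below liver the loci split. Kidney was higher than the mean of lung and B cell at Apoc3 (1.91 ± 0.16), Apoa1 (1.73 ± 0.16), Apoa4 (1.48 ± 0.16) and Apob (0.97 ± 0.18), 4 of 10 loci against 25.5% of genes. It was lower at Apoa2 (-1.17 ± 0.13), Apoc1 (-0.56 ± 0.11), Apom (-0.43 ± 0.09) and Apoe (-0.32 ± 0.11), again 4 of 10 against 34.4%. Apoa5 (-0.38 ± 0.19) and Apoh (-0.11 ± 0.14) were not called. Of the 4 called lower, only Apoa2 remained so without scaling (-0.69), and over gene bodies alone none did.

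**Figure D3:**
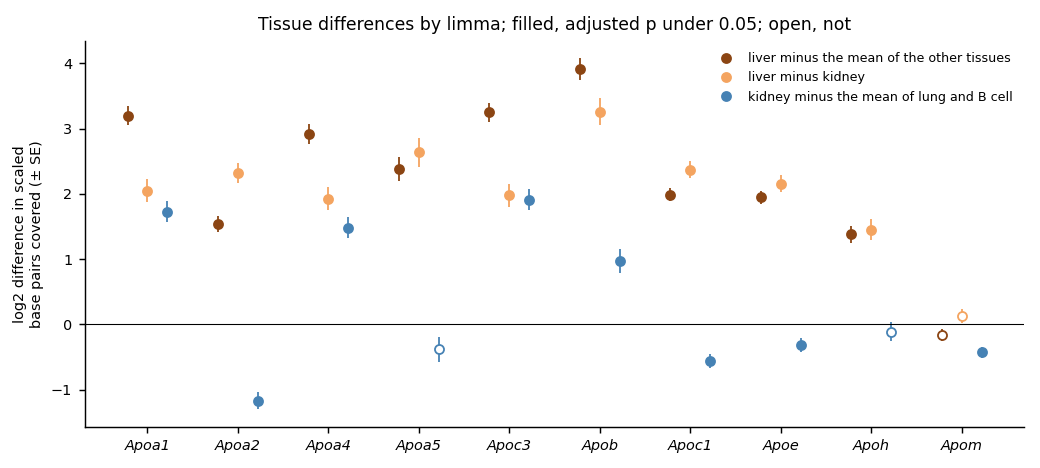
Log2 difference in scaled base pairs covered, with its standard error, for the 10 loci in 3 contrasts fitted by limma over 20 sets. Filled points have an adjusted p under 0.05. Both contrasts of liver are high at all loci but Apom, and the contrast of kidney with lung and B cell is positive at Apoa1, Apoa4, Apoc3 and Apob.

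At the annotated 5′ end, taken with 250 bp on both sides, all 10 genes had a hotspot in all 5 liver sets. The share of all genes with this pattern was not counted, and it is at least the 44.8% with a hotspot in all 20 sets. Apoa1, Apoa2 and Apoa5 had one in no other adult set, a pattern found in 147 of 21755 genes (0.676%). Apoa4, Apoc3 and Apom had one in all 5 kidney sets as well and in none of lung or B cell, a pattern of 141 genes (0.648%). Apoe and Apoh had one in all 20 sets, as did 44.8% of genes. Apob and Apoc1 fell between these patterns. The Apob start was marked in all 5 kidney sets, in the B6xCAST and B6xPWK lung sets and in no B cell set. The Apoc1 start was marked in kidney of B6xCAST only, in lung of B6x129 and B6xCAST, and in no B cell set. With 1000 bp on either side Apoa2 left the first pattern, since the wider span reached a neighbouring site.

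The start hotspots of Apoa1, Apoa2 and Apoa5 in liver enclosed the printed promoters, among them both FOXA matches of Apoa1. They were 778 to 7970 bp wide at Apoa1, 670 to 9592 bp at Apoa2 and 866 to 6484 bp at Apoa5. The Apom start hotspot in liver was 761 to 1594 bp wide. Apoh has a second start in RefSeq, at position 108395297, far inside the GENCODE gene, which is the one whose sequence is printed. This start was marked in all 5 liver sets and in 4 kidney sets, all but B6xSPRET, and in no lung or B cell set, unlike the 5′ end beside Prkca. A second RefSeq start of Apoa2, at 171221564, was marked in 5 liver, 3 kidney, 3 lung and 4 B cell sets, and it lies in Tomm40l.

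**Figure D4:**
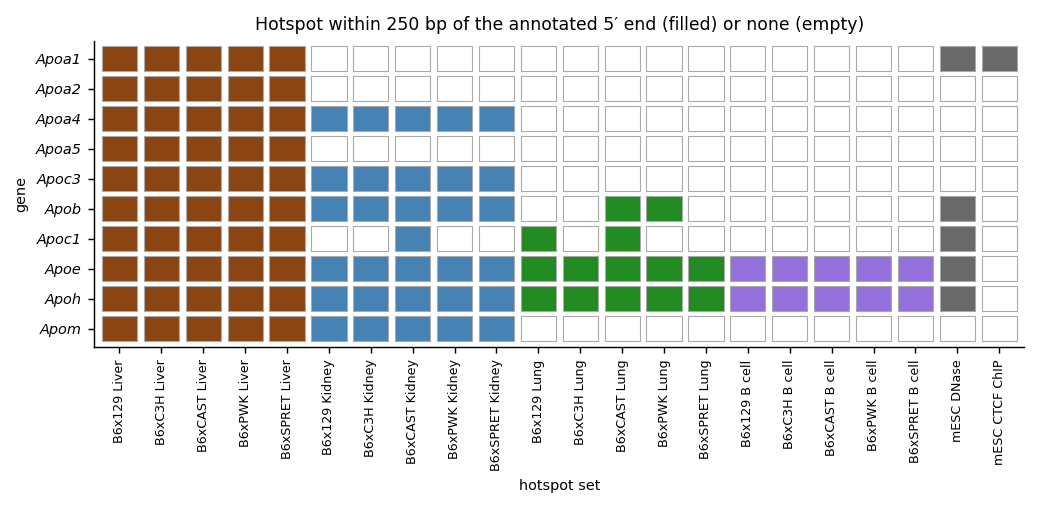
Presence (filled) or absence (empty) of a hotspot within 250 bp of the annotated 5′ end of each gene, in 20 adult hotspot sets, the mESC DNase-seq set and the mESC CTCF set. The liver columns are filled for all 10 genes, as they would be for at least 44.8% of all genes, and the B cell columns for Apoe and Apoh only.

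Sequence open in every liver set made up a stable core of these loci. Over the 7 regions 67182 bp were covered in all 5 liver sets, and 40835 bp of these, or 60.8%, were covered in no other adult set. Across the genome 58.2 Mb were covered in all 5 liver sets and 24.6% of them in no other set. The share was 79.9% at Apob, 72.2% at Apoa5, 63.8% in the Apoa1-Apoc3-Apoa4 region, 63.4% at Apoc1-Apoe, 53.1% at Apoa2, 47.1% at Apoh and 10.3% at Apom. All regions except Apom were thus above the genome's share. In these regions 102 runs of 100 bp or more were covered in all 5 liver sets. Of these, 54 were touched by no other adult set, 41 by a kidney, 34 by a lung and 23 by a B cell hotspot. The shares of such runs in the genome were not counted. Merged over sets, the regions held 134 elements with a median width of 351.5 bp. Of these, 11 (8.21%) had a hotspot in all 5 liver sets and none elsewhere, against 3.03% of elements in the genome. Elements with a hotspot in all 20 sets were also more frequent in the regions, 13 (9.7%) against 3.77%, so the excess was not particular to liver.

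The liver core included sites away from the promoters. At Apob, runs of 1230 bp centred 40.7 kb and of 866 bp centred 27.3 kb from the start were covered in all 5 liver sets and in no other adult set. Runs of 1066 bp and 1262 bp lay 11.5 and 3.98 kb downstream of the Apoc1 start, toward Apoc4, and another of 611 bp was centred at -3.46 kb from the Apoe start. A run of 2618 bp, from upstream of the Apoc1 start into the end of Apoe, was touched by 1 lung set and by no kidney or B cell set, and it also met a hotspot of both mESC sets. Upstream of Apoa1, runs at -4.19 and -3.22 kb were shared by all 5 kidney sets, and runs at -2.05 and -1.38 kb were covered in liver alone.

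Some stretches were open in another tissue and closed in liver. A total of 4 stretches of 100 bp or more were covered in all 5 sets of another tissue and in no liver set. The number of such stretches in the genome was not counted. Of the merged elements, 9 (6.72%) had a hotspot in all 5 sets of another tissue and not in all liver sets, against 12.1% in the genome. Kidney had 235 bp at -3.51 kb from the Apob start, 139 bp at 33.6 kb into Apoh and 125 bp at 13 kb downstream of the Apom start, in Csnk2b. Lung had 295 bp at 20.9 kb into Apoh. The Apob stretch (chr12:7974019-7974253) overlapped no annotated gene.

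The 7 regions also held 16 stretches of 100 bp or more open in all 20 adult sets, 7503 bp together, or 11.2% of the liver core against 20.7% in the genome. Of the 16, 14 met a mESC DNase-seq hotspot and 11 a mESC CTCF hotspot, where 60.5% of such stretches in the genome met a CTCF hotspot. CTCF is the zinc finger protein that anchors chromatin loops. Of the 16, 9 overlapped exons of Tomm40l, Tomm40, Zpr1, Prkca or the neighbours of Apom, and 1 was the Apoe start. The other 6 all met a CTCF hotspot. Among them was a second Apoe stretch, 0.915 kb from the start and within the liver block of Apoc1 and Apoe. Others were sites 34.9 and 75.4 kb from the Apoh start. The remaining 3 lay in or beside the broad liver blocks of the Apoa1-Apoc3-Apoa4 and Apob regions. They were part of an Apoa1 coding exon 1.47 kb from the start, a site 6.28 kb from the Apoa4 start outside any gene, and part of an Apob coding exon 13.4 kb from the start. Those 3 are shown because they were the stretches open in all 20 adult sets in those regions. Their sequences, from the same build and given on the forward strand, are printed with AGGNGGC, letters from the core of the CTCF motif, in capitals where they occur on either strand.
Apoa1 exon, chr9:46229954-46230142: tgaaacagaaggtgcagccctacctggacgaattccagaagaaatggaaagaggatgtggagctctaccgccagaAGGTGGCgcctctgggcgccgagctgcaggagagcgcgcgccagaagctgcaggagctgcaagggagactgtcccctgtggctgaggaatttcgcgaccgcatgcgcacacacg
Apoa4 downstream, chr9:46246853-46247099: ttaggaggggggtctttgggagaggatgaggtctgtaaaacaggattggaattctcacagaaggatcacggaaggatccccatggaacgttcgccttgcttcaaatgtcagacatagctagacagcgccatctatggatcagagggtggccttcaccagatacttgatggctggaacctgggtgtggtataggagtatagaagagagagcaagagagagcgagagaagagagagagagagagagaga
Apob exon, chr12:7990872-7991127: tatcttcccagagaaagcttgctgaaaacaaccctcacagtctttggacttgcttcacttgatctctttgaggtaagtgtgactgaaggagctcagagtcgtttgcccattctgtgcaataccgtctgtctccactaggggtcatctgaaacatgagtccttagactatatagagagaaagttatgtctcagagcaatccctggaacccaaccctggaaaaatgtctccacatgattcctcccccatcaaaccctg

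The Apoa1 exon held the letters and the other printed stretches did not. Of those described but not printed, the second Apoe stretch and the site 75.4 kb from the Apoh start held them. The site 34.9 kb from the Apoh start did not. The letters occurred in 48.1% of 30726 stretches open in all 20 sets. The share was 51.0% with and 43.6% without a mESC CTCF hotspot, so the letters separated the groups little. The exonic stretches are among the places where kidney, lung and B cell sets show their narrow sites within the broad liver blocks, at 1.47 kb in the Apoa1 plot and at 13.4 kb in the Apob plot of sets per base.

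In mESCs the DNase-seq set covered 2.73% of the Apob region, 4.56% of the Apoa1-Apoc3-Apoa4 region, 4.85% of the Apoa5 region, 4.06% of Apoh, 8.94% of Apoc1-Apoe, 9.77% of Apom and 12.2% of Apoa2. The mESC set had a hotspot at the starts of Apoa1, Apob, Apoc1, Apoe and Apoh and at none of the other 5. At Apoa1 the CTCF set had a hotspot at the start too. There was 1 mESC set of each kind, so these values have no replicate.

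Hybrids were compared over all tissues together, so a difference confined to a single tissue was not tested. The F-test of the hybrid terms in the same limma fit called none of the 10 loci and 37 of 20430 genes (0.181%). At an unadjusted p under 0.05 it met 1 of the 10, Apom, with an unadjusted p of 0.0101 and an adjusted p of 0.299, and the other adjusted p ran from 0.498 to 0.857. The liver sets also differed in the number of pieces at some loci. Apoe had 2 and 3 hotspots in B6x129 and B6xC3H and 10, 10 and 14 in B6xCAST, B6xPWK and B6xSPRET, and Apob had 10 and 13 against 28, 19 and 16. The B6x129 and B6xC3H liver sets also covered the most of the genome, 128.8 and 98.6 Mb, against 84.7, 92.5 and 78.4 Mb, and hybrid and depth cannot be told apart in these pooled sets. Averaged over the 10 loci, a liver set held 13.7 hotspots and a set of another tissue 5.15.

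Beyond the 10 loci, 38 other genes of lipoprotein metabolism were examined in the same way. Liver was higher than the other tissues at 25 and lower at 7, where 25.6% and 36.0% of all genes were, with a median log2 difference of 0.89, against -0.12 for all genes. Genes with known roles in liver lipoprotein handling were among those higher: Pon1 (2.93 ± 0.25), a high density lipoprotein enzyme, Abcg5 (2.87 ± 0.33), a sterol exporter of bile, and Mttp (1.12 ± 0.10), which loads lipid onto Apob. Among other apolipoproteins, Apoc4 (2.45 ± 0.14) and Apoc2 (1.32 ± 0.12), whose windows share bases with that of Apoc1, were higher, as were Apon (1.36 ± 0.13) and Apof (0.63 ± 0.11). Apod (-1.51 ± 0.13), a lipocalin made in many tissues, Apoo (-0.81 ± 0.11), a mitochondrial protein, and Apobr (-0.58 ± 0.13), a macrophage receptor, were lower. Lpl (0.39 ± 0.30, adjusted p = 0.267) and Gpihbp1 (-0.06 ± 0.32, adjusted p = 0.879), which act at capillary walls outside the liver, were not called. Against kidney, 24 of the 38 were higher and 5 lower, beside 22.0% and 25.2% of all genes. Kidney against lung and B cell gave 10 higher and 15 lower, shares near the 25.5% and 34.4% of all genes.

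The loci also resembled one another over the 20 sets. The Pearson r of a locus with the mean profile of the 10 was 0.965 for Apob, 0.943 for Apoe, 0.934 for Apoa4, 0.886 to 0.918 for Apoa1, Apoa5, Apoc1, Apoc3 and Apoh, 0.70 for Apoa2 and -0.232 for Apom. The mean includes each locus, and sets of a tissue share their cells and depth, so these values describe the sets only. Of all other genes, those most like the mean were Cyp2d11 (r = 0.981), Tceal6 (0.981), Mup14 (0.980), Onecut1 (0.979) and Mup19 (0.979), over 20 sets. Onecut1 is a liver transcription factor, the Mup genes code for major urinary proteins made in liver, and Mup and Cyp2d genes have close copies to which unique reads map less often.

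RNA-seq gave the same genes in 4 liver, 4 kidney, 4 lung and 5 B cell samples, at 283708 to 809317 expected counts per sample. The paper lists far more uniquely mapped reads per library, so these totals of the deposited tables do not give the sequencing depth. At these totals many of the genes were seen in liver only. Apoe had 719, 564, 178 and 394 counts in the liver samples, 17, 16, 14 and 6 in kidney, 14, 15, 9 and 5 in lung and 1, 2, 2, 20 and 4 in B cells. Apoa1 had 85, 68, 31 and 80 counts in liver, 4 in a kidney sample and 0 in the other 12. No liver sample overlapped another tissue at either gene, and the third liver sample was the lowest of the 4 at both. Pooled and scaled to library totals, Apoe was 72.8-fold higher in liver than in the other samples (95% exact interval 60.7 to 88.0), and the interval covers counting error only. In edgeR's quasi-likelihood test liver exceeded the mean of the other tissues by 7.27 at Apoe and by 9.44 at Apoa1 on the log2 scale (adjusted p = 4.43e-14 and 3.02e-11). Apoa1 passed the filter on low counts through its liver samples alone, so its p-value adds nothing to the counts.

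Apoa2 had 16, 16, 15 and 19 counts in liver and 1 in the 13 other samples together, and Apoc1 had 27, 21, 24 and 30 against 0, which with a floor of 3 counts over the 13 samples is at least 166.8-fold higher. Apob was different. It had 106, 88, 10 and 125 counts in liver, 5, 20, 20 and 2 in kidney, 11, 25, 16 and 11 in lung and 0, 1, 0, 0 and 2 in B cells, so that 1 liver sample overlapped kidney and lung. Its ratio was 14.3 (11.5 to 17.8), and it was called with a log2 difference of 5.57 (edgeR, adjusted p = 5.92e-10). These 5 genes passed the filter on low counts and all were called higher, against 21.8% of the 4479 genes tested, and 5 were called in each of the 17 fits that left out 1 sample. A gene that passes through liver counts alone, as Apoa1, Apoa2 and Apoc1 did, had to differ. Their calls and the count of 5 are therefore descriptions.

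The other 5 genes did not pass the filter. Apoh had 13, 5, 5 and 14 counts in liver, Apoa4 7, 1, 2 and 5 and Apoc3 4, 5, 1 and 5, and all 3 had 0 in every other sample. Apoa5 had 26 counts in liver and 15 elsewhere, 13 of them in B cells. Apom had 9, 4, 0 and 2 counts in liver and 1 to 21 in B cells, and its ratio of liver to the other samples was 1.27 (0.668 to 2.27). Exons of Apoa4, Apoa5 and Apoh overlap genes on the opposite strand, over 524 of 2522 bp at Apoa5. The strand setting of the counting is not given in the sources used here, so reads of the 2 strands cannot be told apart at these genes. Without the filter edgeR called 9 of the 10 higher, as it did 1663 of 28412 genes. The exception was Apom (1.32, adjusted p = 0.162), where DESeq2 gave 1.71 (adjusted p = 0.0652). Whether the low counts limited the call at Apom was not tested. At Apoa1, Apoa2, Apoc1, Apoc3, Apoa4, Apoh and Apoe every liver sample was above every other sample. At Apoa4 and Apoc3 this rested on as little as 1 count against 0. The share of all genes with that pattern was not counted.

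**Figure D5:**
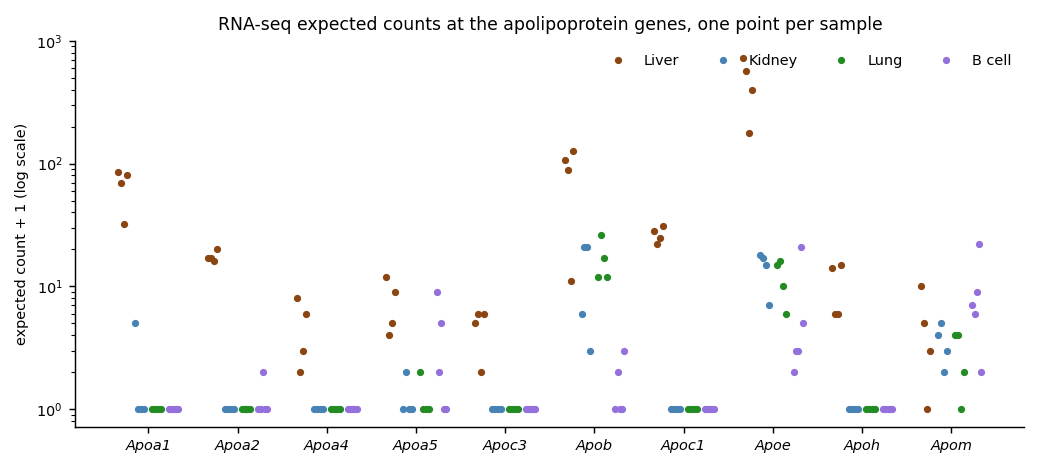
RNA-seq expected counts plus 1 (log axis) of the 10 genes, with 1 point per sample, coloured by tissue (4 liver, 4 kidney, 4 lung and 5 B cell samples). Liver points are highest at Apoe, Apoa1 and Apob, 1 liver point of Apob lies among those of lung, and at Apom B cell points reach 21 counts.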

How the data were processed

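DNase-seq was measured in liver, kidney, lung and B cells of 5 F1 hybrids and in mESCs, with CTCF ChIP-seq in mESCs and RNA-seq in 17 adult samples. The authors mapped reads to mm10 with BWA after trimming with Trimmomatic, pooled the samples of a hybrid and tissue, and called hotspots with hotspot2. The deposited hotspot files give positions and a −log10 FDR with a ceiling of 100, which served here only for ranking hotspots of the same set. The RNA-seq tables, made with STAR and RSEM per the labels, hold an expected count and a TPM for each gene as deposited by the authors. Library depth behind the pooled hotspot files was not used here.

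Base pairs covered by hotspots in the gene body plus 10 kb (GENCODE vM21) were scaled to the mean total of the 20 adult sets and tested as log2(bp + 100) with limma 3.58.1, with hybrid as a covariate, for the 20430 protein-coding genes with a hotspot in at least 5 sets. Adjusted p values are Benjamini-Hochberg values over all genes tested, with a threshold of 0.05. The set was the unit, and the p-values measure only the spread between hybrids after pooling. RNA tests ran on rounded expected counts in edgeR 4.0.16 (quasi-likelihood, TMM, filterByExpr) over 4479 genes. Labels do not say whether RNA samples came from separate mice. The strain of 1 B cell RNA sample differed between sources, so the main RNA test grouped samples by tissue alone. On simulated data with 200 genes changed by 2 on the log2 scale, limma recovered 96.5% with 3.02% false calls over 20430 genes, and edgeR 79.0% with 1.86% over 3880 genes.

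The members, the list of 38 further genes and the markers were chosen with earlier results of these data known, and the motif letters with the sequences in view. All 10 members were named in every comparison, as were examples of the 38 and the 5 genes whose profile over the 20 sets was most like the members' mean. Alternatives were no scaling, hotspots at FDR 1%, the 75000 highest-scoring hotspots of a set, pseudocounts of 10 and 1000 bp, the gene body alone or with 50 kb, no filter, no hybrid covariate, other windows at the start, DESeq2 1.42.0, limma on log2(TPM + 1), strain as a covariate, and leaving out each hybrid or RNA sample. Allelic imbalance was not analysed here. Values of a few genes of the lists are not reported here. The analysis used Python 3.11.15, numpy 2.4.6, pandas 2.3.3, matplotlib 3.10.9 and R 4.3.3.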

Additional observations from a re-analysis of the deposited data

Results flagged for a closer look

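Each locus was examined for a value far from the rest among the 5 sets of a tissue and among the 4 liver RNA-seq samples, 50 groups in all. In 3 of them a hotspot set stood apart in scaled base pairs covered, where chance flags about 1 in 20 groups. The Apoa2 window of B6xC3H liver was covered over 11526.4 scaled bp, where the other liver sets had 8239 to 8884.4 bp. The Apob window of B6xPWK lung had 2307.2 bp, where the other lung sets had 1029 to 1394.7 bp, and this was 1 of the 2 lung sets with a hotspot at the Apob start. The Apom window of B6xSPRET kidney had 5107.4 bp, where the other kidney sets had 4037.5 to 4247.3 bp. None of the 3 changed a call when its hybrid was left out of the comparison of liver with the other tissues. The causes were not tested.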

How the results depend on the processing

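The 9 loci called higher in liver became 10 against the other tissues without scaling and over gene bodies, and 10 against kidney over gene bodies, and their number was 9 under the other alternatives run. The 3 genes with a start hotspot in liver sets alone stayed 3 except with 1000 bp on either side, where they were 2. The median difference of the 10 loci, 2.19 for liver against the others and 2.1 against kidney, became 2.79 and 2.39 without scaling, 2.52 and 2.60 with the 75000 highest-scoring hotspots, 1.79 and 1.77 with a pseudocount of 1000 bp, 2.87 and 1.72 over gene bodies and 1.65 and 1.66 with 50 kb on both sides. Apom changed direction, to 0.45 against the other tissues without scaling and 1.76 over its gene body, and to -0.06 against kidney with 50 kb, which also called it lower than the other tissues (1 of 10 loci, -0.29). Unscaled, 9793 genes were higher and 1418 lower in liver against the others, 2173 were lower than in kidney, and 8146 were higher and 1406 lower in kidney against lung and B cell. That last comparison was the least stable. Its median of -0.21 became 0.27 unscaled, 0.30 over gene bodies and 0.04 with 50 kb, and the 4 loci called lower became 1 unscaled and 0 over gene bodies. Unscaled, Apoa5 (0.08), Apoe (0.16), Apoh (0.38) and Apom (0.06) changed sign, over gene bodies Apoa5 (0.00), Apoc1 (0.39) and Apom (1.26), and with 50 kb Apoa5 (0.30). The 37 genes that differed between hybrids became 76 unscaled, 7 with the highest-scoring hotspots, 20 with a pseudocount of 10 bp, 13 over gene bodies and 70 with 50 kb. The 13.7 hotspots per locus and liver set became 6.46, 5.58 and 37.6 with the highest-scoring hotspots, gene bodies and 50 kb, and the 5.15 of other sets 2.79, 1.46 and 17.7. The 5 genes called in RNA-seq became 9 without the filter, with DESeq2 and with limma on TPM, all but Apom. Genes called higher became 1663, 1591 and 887 and lower 1536, 881 and 6288, of 28412, 28412 and 15195 tested.

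Without 1 hybrid, the loci called lower in kidney than in lung and B cell were 3 to 5. Apoe lost its call without B6xC3H (-0.27, adjusted p = 0.0967) and without B6xPWK (-0.29, adjusted p = 0.0832), and Apoa5 gained one without B6xSPRET (-0.57, adjusted p = 0.0257). The genes that differed between hybrids were 11 to 31, fewest without B6xSPRET (11) and B6xPWK (13). Of 330 summary values 289 stayed close to the main value, as did 507 of 530 values of single genes. Hybrid was the block of the hotspot fits, and no locus lost or gained a call without it. For the RNA-seq samples, the labels give no replicate numbers shared between groups, so samples were not paired by mouse. The fit with strain as a covariate, without the B cell sample whose strain differed between sources, called 1090 of 4976 genes higher and 994 lower. The causes of these changes were not tested. The low totals of the deposited RNA-seq tables limit the counts of single genes, and pooling leaves hotspots without replicates within a hybrid.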
